A study of Drosophila melanogaster and Drosophila pseudoobscura and Drosophila virilis with 4 samples.

Results

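*stg* (*string*, locus tag Dmel_CG1395) and *CycE* (*Cyclin E*, Dmel_CG3938) are 2 genes that set the pace of cell division in *Drosophila*. A FAIRE-Seq peak was counted to *stg* when its midpoint lay between 25040000 and 25130000 on chromosome arm 3R, and to *CycE* when it lay between 15720000 and 15760000 on 2L, at positions of FlyBase release 5. The *stg* window of 90 kb held 35 peaks and the *CycE* window of 40 kb held 9, so that 44 of the 19424 deposited peaks were examined. The peaks were taken by position alone, within windows that were chosen with earlier results of these data known. The peaks of each locus were numbered in order along the arm, and the 2 loci were described apart.

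*stg* encodes the Cdc25 phosphatase, which removes inhibitory phosphates from Cdk1 and thereby lets cells pass from G2 into mitosis. Its transcription is controlled by a long array of separate regulatory elements, each active in some tissues or stages. *CycE* encodes the cyclin that activates Cdk2 and drives cells from G1 into S phase. In the eye disc, cells divide ahead of the morphogenetic furrow, halt in G1 inside it, and part of them divide once more behind it in the second mitotic wave, so that both genes are under spatial control in this tissue.

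FAIRE-Seq recovers DNA that is depleted of nucleosomes after formaldehyde cross-linking, and the number of reads in a region is taken as a measure of how open its chromatin is. It was applied to eye-antennal imaginal discs, the epithelium that gives rise to the adult eye and antenna, of wandering larvae of the third instar raised at 25 °C. *D. melanogaster* was represented by 2 libraries from different strains, the wild-type strain Canton-S and FRT82 (genotype P{neoFRT}82B, a line with a site for mitotic recombination on 3R, the arm that carries *stg*). *D. pseudoobscura* and *D. virilis* were each represented by 1 wild-type library. Replicate error can thus be judged from the 2 strains only, and nothing in the labels says how many animals were pooled. The disc holds many cell states, so a higher peak in more cells and a more open site per cell cannot be told apart, and since the table holds no expression values the tissue was not checked against marker genes.

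The reads in all peaks summed to between 1386805 in FRT82 and 4733792 in *D. pseudoobscura*, and the median peak held 44 reads in FRT82 and between 98 and 146 in the other libraries. The *stg* peaks together held 6847 reads in Canton-S and 3036 in FRT82, with 12676 in *D. pseudoobscura* and 7191 for *D. virilis*. Those of *CycE* held 3026, 1259, 5306 and 3525 reads in the same order. No peak of either locus had fewer than 10 reads in Canton-S, *D. pseudoobscura* or *D. virilis*, whereas FRT82 had 9, 9, 5 and 9 reads at *stg* peaks 3, 6, 19 and 32. Heights are given below as the deposited RPKM, reads scaled for the length of the peak and the depth of the library and adjusted further between libraries by the authors, which can be compared between peaks of different length.

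The mean level of both loci was higher in *D. pseudoobscura* and *D. virilis* than in either strain of *D. melanogaster*. The level of a locus was taken as the mean RPKM of its peaks weighted by their length. At *stg* this level was 36.7 RPKM (Canton-S) and 40.5 RPKM (FRT82) in the strains, with *D. pseudoobscura* at 49.5 RPKM and *D. virilis* at 45.0 RPKM. The levels of both other species thus lay above those of the strains, which averaged 38.6 ± 2.67 RPKM (SD, n = 2 strains). On the log2 scale *D. pseudoobscura* exceeded the mean of the strains by 0.36 and *D. virilis* by 0.22, while the strains differed by 0.14 from each other. At *CycE* the level was 39.7 RPKM (Canton-S) and 40.4 RPKM (FRT82) in the strains, with *D. pseudoobscura* at 50.1 RPKM and *D. virilis* at 54.5 RPKM. The differences from the strains (SD 0.515 RPKM between them, n = 2) were 0.32 and 0.45 log2 units, against 0.03 between the strains. With 1 library each, the levels of *D. pseudoobscura* and *D. virilis* have no error of their own. The size of these differences depended on how the peaks of a locus were combined, and with the median over the peaks *D. pseudoobscura* exceeded the strains by 0.65 log2 units at *stg* and 0.63 at *CycE*, and *D. virilis* exceeded them by 0.18 at *stg* and 0.88 at *CycE*. With the windows widened by 25% on each side, the differences at *CycE* fell to 0.19 in *D. pseudoobscura* and 0.18 in *D. virilis*, and that of *D. virilis* at *stg* was 0.14, as large as between the strains.

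**Figure D1:**
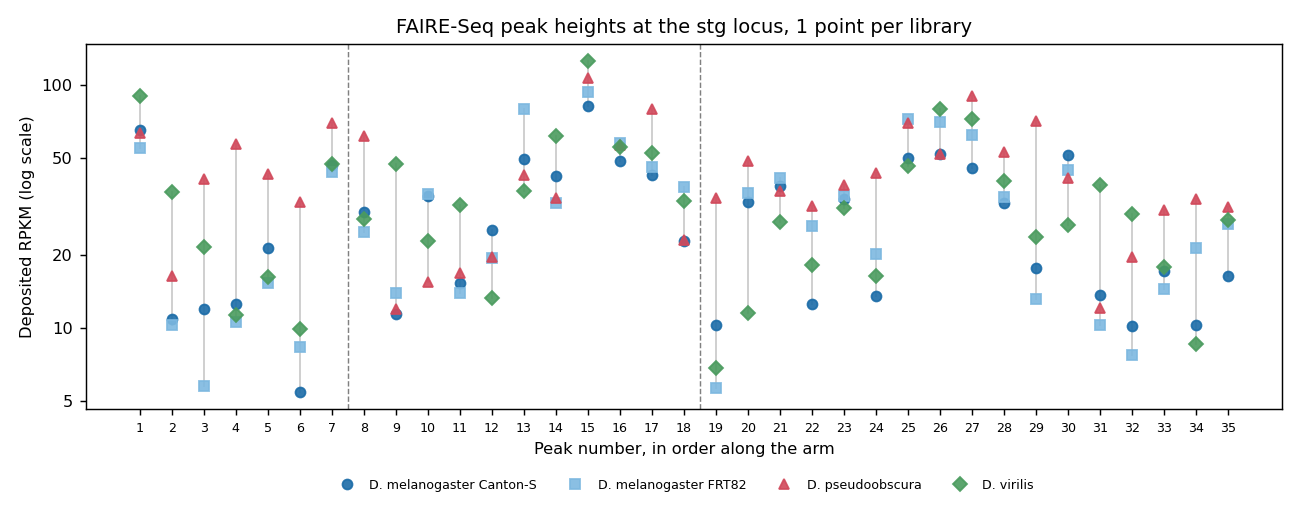
Deposited RPKM (log scale) of the 35 *stg* peaks in each of the 4 libraries, with 1 point per library, thin vertical lines joining the lowest and highest library of a peak, and dashed lines at the gaps of 7 kb or more. Peak 15 is the highest in every library, and the red triangles of *D. pseudoobscura* stand apart above the other libraries at peaks 4, 5, 6, 8, 19 and 29.

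The *stg* window was densely packed with open regions. It held 38.9 peaks per 100 kb, against 17.2 over the whole of arm 3R, and the peaks covered 15.6% of its length. Their lengths ran from 153 to 1502 bp with a median of 304 bp, close to the median of 289 bp over the table. Peak 15 (3R, 25081506 to 25081922) had 81.8 RPKM (Canton-S) and 93.8 RPKM (FRT82) in the strains, with *D. pseudoobscura* at 107 RPKM and *D. virilis* at 126 RPKM. It was the highest *stg* peak in all 4 libraries, and it stood at percentile 96.3, 97.6, 98.5 and 99.3 of all peaks in these libraries. The longest peak, peak 16 (25082143 to 25083645), lies next to it and had 48.7, 57.7, 56.7 and 55.6 RPKM in the same order. Both other species were within the range of the strains at this peak. Peak 1 (25040334 to 25041298), at the start of the window, had 65.3 and 54.9 RPKM in the strains, with *D. pseudoobscura* at 63.6 RPKM and *D. virilis* at 89.7 RPKM. Peak 27 (25110393 to 25110804) was the other of the 3 highest peaks by the mean of log2 RPKM, with 45.6, 62.0, 90.03 and 72.6 RPKM. None of these 4 strong peaks differed by 2-fold between a species and both strains.

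*D. pseudoobscura* was compared with *D. melanogaster* at every peak of the table by edgeR's quasi-likelihood test on the raw counts, in which the spread comes from the 2 strains and the single library of the other species is assumed to vary like them. A peak was called at a Benjamini-Hochberg adjusted p under 0.05 over the 19424 peaks. At *stg*, 10 of 35 peaks (28.6%) were called higher in *D. pseudoobscura*, against 13.8% of all peaks. No *stg* peak was called lower, against 13.7% of all peaks. DESeq2 and limma called none lower either, but over all 19424 peaks they called only 701 and 1407 lower. At an unadjusted p under 0.05, 11 were higher and 1 was lower, and the share of all peaks at this limit was not counted. The median log2 ratio of *D. pseudoobscura* to the mean of the strains was 0.59 over the *stg* peaks and -0.01 over all peaks, and it was above 0 at 26 of the 35. The call depends on the test. limma on log2(RPKM + 1) called 6 of the 35 peaks higher, against 1537 of all 19424 peaks. DESeq2 called 1 of the 35, against 504 of all 19424. A fit that joins *D. pseudoobscura* and *D. virilis* into 1 group called none, there or anywhere in the table. With at least 10 counts required in every library, which leaves out peaks 3, 6, 19 and 32, edgeR called 7. Over the table it called 2465 of the 18455 peaks tested in that setting higher.

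Among the 10 called peaks, 4 were neighbours near the start of the window. Peak 3 (25046142 to 25046413) had 12.0 RPKM (Canton-S) and 5.75 RPKM (FRT82) in the strains, with *D. pseudoobscura* at 40.9 RPKM and *D. virilis* at 21.5 RPKM. Peak 4 (25047988 to 25048297) had 12.5, 10.6, 57.3 and 11.3 RPKM in the same order. Peak 5 (25048651 to 25049078) had 21.3, 15.3, 43.1 and 16.2 RPKM. In each of these *D. pseudoobscura* was the highest library, and at peaks 4 and 5 *D. virilis* lay within the range of the strains. Peak 6 (25049363 to 25049545) had 5.41, 8.31, 32.9 and 9.84 RPKM. The fitted log2 fold change of *D. pseudoobscura* over *D. melanogaster* was 1.87 ± 0.44 (SE) at peak 3, with an edgeR adjusted p of 0.000439. At peak 4 it was 2.10 ± 0.42, and the edgeR adjusted p of 2.46e-05 was the smallest of the locus. Peak 5 reached 1.15 ± 0.39 (edgeR adjusted p = 0.0173) and peak 6 reached 2.06 ± 0.51 (edgeR adjusted p = 0.000732). In RPKM, *D. pseudoobscura* was 4.92, 4.99, 2.39 and 4.91 times above the geometric mean of the strains at peaks 3 to 6. At peaks 3 and 6 FRT82 had 9 reads each, so that the strain values there carry a large counting error. The log2 fold change at peak 3 was 2.70 against FRT82 alone and 1.48 against Canton-S alone.

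The remaining 6 called peaks were scattered over the rest of the window. Peak 8 (25075900 to 25076362) had 29.9 RPKM (Canton-S) and 24.8 RPKM (FRT82) in the strains, with *D. pseudoobscura* at 61.6 RPKM and *D. virilis* at 27.9 RPKM. Peak 29 (25112160 to 25112320) had 17.5, 13.1, 70.8 and 23.7 RPKM in the same order. Peak 19 (25099442 to 25099595), the lowest *stg* peak by the mean of log2 RPKM over the 4 libraries, had 10.3, 5.66, 34.3 and 6.80 RPKM. At all 3 peaks *D. pseudoobscura* exceeded every other library by more than 2-fold. Their log2 fold changes were 1.24 ± 0.35 (SE) at peak 8, 2.07 ± 0.45 at peak 29 and 1.75 ± 0.51 at peak 19, with edgeR adjusted p of 0.00366, 0.000117 and 0.00446. Peak 19 rests on 5 reads in FRT82, and its log2 fold change was 2.47 against FRT82 alone and 1.42 against Canton-S alone. Peak 24 (25107044 to 25107234) had 13.5, 20.2, 43.5 and 16.4 RPKM, a log2 fold change of 1.30 ± 0.46 (edgeR adjusted p = 0.0231).

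The other two called peaks were strongly open in every library and changed less. Peak 17 (25083756 to 25084615), which is 859 bp long, had 42.4 RPKM (Canton-S) and 45.9 RPKM (FRT82) in the strains, with *D. pseudoobscura* at 79.7 RPKM and *D. virilis* at 52.2 RPKM. Its log2 fold change was 0.96 ± 0.27 (SE) with an edgeR adjusted p of 0.00353. At peak 27, whose heights are given above, it was 0.87 ± 0.32 (edgeR adjusted p = 0.0267). *D. pseudoobscura* stood above both strains at these peaks by less than 2-fold.

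In *D. virilis*, *stg* peaks were called in both directions. Of the 35 peaks, 4 (11.4%) were called higher in *D. virilis*, against 11.9% of all peaks, and 1 (2.86%) was called lower, against 12.9%. The median log2 ratio over the *stg* peaks was 0.17, with 21 peaks above 0 and 14 below, and the median over all peaks was -0.02. limma called 4 higher and 1 lower, against 1836 higher and 2077 lower of all 19424 peaks. DESeq2 called none of the 35 in either direction, against 430 higher and 688 lower of all 19424. Since the comparisons with *D. pseudoobscura* and *D. virilis* share the *D. melanogaster* libraries, their values are set side by side without a test of the overlap. At peaks 3, 6, 17, 27 and 29, all called in *D. pseudoobscura*, *D. virilis* also stood above both strains without being called.

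The 4 peaks called higher in *D. virilis* were short, between 167 and 202 bp, and weak in *D. melanogaster*. Peak 9 (25076422 to 25076624) had 11.4 RPKM (Canton-S) and 13.9 RPKM (FRT82) in the strains, with *D. pseudoobscura* at 12.0 RPKM and *D. virilis* at 47.3 RPKM. Peak 2 (25044317 to 25044484) had 10.9, 10.3, 16.3 and 36.3 RPKM in the same order. *D. virilis* was the highest library at both, and at peak 2 *D. pseudoobscura* also stood above both strains without being called. The log2 fold change of *D. virilis* over *D. melanogaster* was 1.63 ± 0.47 (SE) at peak 9 (edgeR adjusted p = 0.00491) and 1.43 ± 0.50 at peak 2 (edgeR adjusted p = 0.0230). Peaks 31 (25113834 to 25114035) and 32 (25114176 to 25114374) are neighbours. Peak 31 had 13.7, 10.2, 12.0 and 38.9 RPKM, and peak 32 had 10.2, 7.68, 19.6 and 29.5 RPKM. At peak 32 *D. pseudoobscura* also stood above both strains, without being called (log2 fold change 0.78 ± 0.50). The log2 fold changes in *D. virilis* were 1.35 ± 0.48 and 1.41 ± 0.50, with edgeR adjusted p of 0.0243 and 0.0241.

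Peak 20 (25103108 to 25103324) went the other way. It had 32.9 RPKM (Canton-S) and 35.7 RPKM (FRT82) in the strains, with *D. pseudoobscura* at 48.4 RPKM and *D. virilis* at 11.5 RPKM, from 94, 41, 189 and 30 reads. *D. virilis* lay below every other library, and its log2 fold change was -1.50 ± 0.51 (SE), with an edgeR adjusted p of 0.0189.

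A plain rule without an error model gave similar counts. A peak passed it when the RPKM of a species was at least 2-fold above, or at least 2-fold below, that of each strain. *D. pseudoobscura* was higher by this rule at 8 of the 35 *stg* peaks (22.9%, against 11.2% of all peaks) and lower at 1 (2.86%, against 9.73%). *D. virilis* was higher at 5 (14.3%, against 12.4%) and lower at 1 (2.86%, against 12.6%), or at 3 where FRT82 alone stood for *D. melanogaster*. The share of all peaks with FRT82 alone was not counted. Among the peaks that passed, 2 were not called by edgeR. Peak 10 (25077580 to 25077771) had 34.7 and 35.5 RPKM in the strains, with *D. pseudoobscura* at 15.4 RPKM and *D. virilis* at 22.8 RPKM, and the log2 fold change of *D. pseudoobscura* was -1.22 ± 0.50 (edgeR adjusted p = 0.0513). Peak 11 (25077994 to 25078247) had 15.3 and 13.9 RPKM in the strains, with *D. pseudoobscura* at 16.8 RPKM and *D. virilis* at 32.2 RPKM.

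The strains differed from each other at the *stg* peaks about as much as over the table. The median absolute log2 ratio of FRT82 to Canton-S was 0.38 at *stg* and 0.38 over all peaks, and 3 of the 35 peaks lay 2-fold or more apart, against 9.74% of all peaks. FRT82 was the higher strain at 19 peaks and Canton-S at 16. The largest ratio was at peak 22 (25104828 to 25105267), with 12.5 RPKM in Canton-S against 26.3 RPKM for FRT82, where *D. pseudoobscura* had 31.6 RPKM and *D. virilis* 18.1 RPKM. The other two such peaks were peak 3 and peak 34, and at peak 34 the strains had 10.3 and 21.3 RPKM. The 14 *stg* peaks that met no rule for naming had medians of 36.1 RPKM (Canton-S) and 36.6 RPKM (FRT82) in the strains, with *D. pseudoobscura* at 37.7 RPKM and *D. virilis* at 32.2 RPKM. In *D. pseudoobscura* their log2 ratios to the strains were between -0.558 and 1.1996, and in *D. virilis* between -0.85 and 0.73.

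Gaps of 7 kb or more divide the *stg* peaks into 3 groups, a limit that was chosen after the positions were seen. Peaks 1 to 7 span 15.0 kb, and their level was 36.5 RPKM (Canton-S) and 30.5 RPKM (FRT82) in the strains, with *D. pseudoobscura* at 52.4 RPKM and *D. virilis* at 47.6 RPKM. Both other species lay above the strains in this group, by 0.65 and 0.51 log2 units. Peaks 8 to 18, which include peaks 15 and 16, had levels of 41.8, 45.7, 52.1 and 52.3 RPKM in the same order. Here too both species lay above the strains, by 0.25 and 0.26 log2 units. Peaks 19 to 35 had levels of 32.1, 39.9, 45.8 and 37.2 RPKM, so that *D. virilis* lay within the range of the strains in this group and *D. pseudoobscura* above it. Of the 10 peaks called higher in *D. pseudoobscura*, 4 were in the first group, 2 in the second and 4 in the third.

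**Figure D2:**
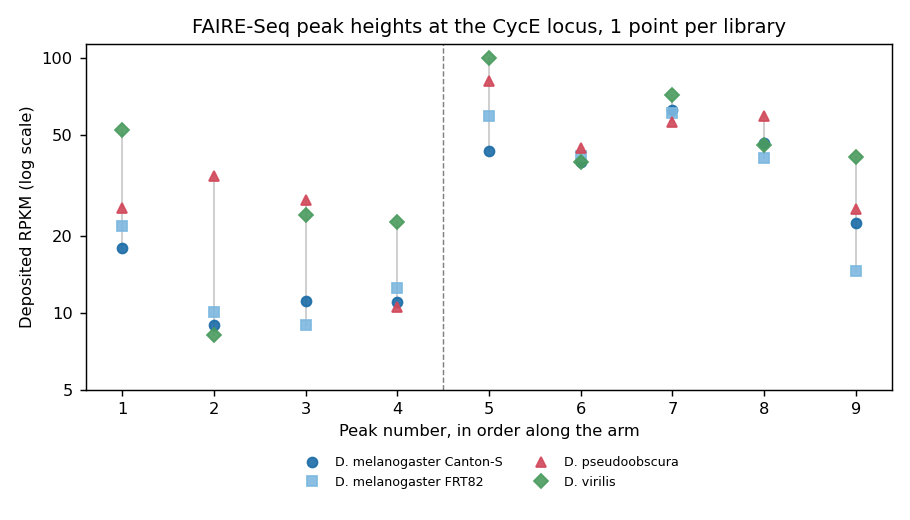
Deposited RPKM (log scale) of the 9 *CycE* peaks in each of the 4 libraries, with 1 point per library, thin vertical lines from the lowest to the highest library, and a dashed line at the gap of 7 kb or more. Peaks 1 to 4 are weak in both *D. melanogaster* strains (at most 21.9 RPKM), and peak 5 is higher in *D. pseudoobscura* (81.1 RPKM) and *D. virilis* (100.1 RPKM) than in either strain.

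The *CycE* window held fewer and longer peaks. It had 22.5 peaks per 100 kb, against 16.2 over arm 2L, with a median length of 699 bp. The nearest peak on the left lies outside the window from 15552500 to 15552674, and on the right from 15760713 to 15760892, where *D. pseudoobscura* had 12.3 RPKM against 44.0 and 54.4 RPKM in the strains. At *stg* the nearest outside peaks lie from 25039295 to 25039655 and from 25131502 to 25131693. The 9 *CycE* peaks fall into 4 weak peaks and, after a gap of 7 kb or more, 4 strong long ones followed by a weaker one.

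Peak 5 (2L, 15742795 to 15743558) was the highest *CycE* peak by the mean of log2 RPKM and the only one of the 44 that edgeR called in both species. limma called it in *D. virilis* only, and DESeq2 called it in neither species. It had 43.2 RPKM (Canton-S) and 59.3 RPKM (FRT82) in the strains, with *D. pseudoobscura* at 81.1 RPKM and *D. virilis* at 100.1 RPKM, from 427, 240, 1142 and 815 reads. Both other species lay above both strains. The log2 fold change was 0.79 ± 0.27 (SE) in *D. pseudoobscura* (edgeR adjusted p = 0.0164) and 0.87 ± 0.27 in *D. virilis* (edgeR adjusted p = 0.00859). Against FRT82 alone the fitted differences were 0.51 and 0.62 log2 units, and against Canton-S alone 1.07 and 1.18.

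The neighbouring strong peaks varied little. Peak 7 (15744907 to 15746008) had 62.7 and 61.0 RPKM in the strains, with *D. pseudoobscura* at 56.1 RPKM and *D. virilis* at 71.5 RPKM. Peak 8 (15746173 to 15747698), which is 1525 bp long, had 46.3 and 40.7 RPKM in the strains, with *D. pseudoobscura* at 59.0 RPKM and *D. virilis* at 45.5 RPKM. Neither was called, and *D. virilis* lay within the range of the strains at peak 8. Their log2 fold changes in *D. pseudoobscura* were -0.01 ± 0.25 and 0.54 ± 0.24, and in *D. virilis* 0.18 ± 0.25 and 0.03 ± 0.25.

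Of the 4 weak peaks at the start of the *CycE* window, 3 were called in 1 species each. Peak 1 (15731473 to 15732172) had 17.9 RPKM (Canton-S) and 21.9 RPKM (FRT82) in the strains, with *D. pseudoobscura* at 25.7 RPKM and *D. virilis* at 52.3 RPKM. It was called higher in *D. virilis*, with a log2 fold change of 1.25 ± 0.34 (SE) and an edgeR adjusted p of 0.00267. Peak 2 (15733263 to 15733433), the lowest of the locus by the mean of log2 RPKM, had 8.99, 10.0, 34.4 and 8.22 RPKM in the same order. Only *D. pseudoobscura* was high there, with a log2 fold change of 1.62 ± 0.49 (edgeR adjusted p = 0.00719). Peak 3 (15734036 to 15734298) had 11.1, 8.999, 27.8 and 24.3 RPKM. Both species were 2-fold or more above each strain at peak 3, and the log2 fold change was 1.22 ± 0.46 in *D. pseudoobscura* (edgeR adjusted p = 0.0321) and 1.10 ± 0.47 in *D. virilis* (edgeR adjusted p = 0.0700), so that the first alone was called. Peak 4 (15735172 to 15735353) had 10.99, 12.5, 10.5 and 22.8 RPKM and was called in neither.

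In all, 3 of the 9 *CycE* peaks (33.3%) were called higher in *D. pseudoobscura* and 2 (22.2%) in *D. virilis*, and by the 2-fold rule 2 were higher in each, or 4 in *D. virilis* where Canton-S alone stood for *D. melanogaster*. No *CycE* peak was called lower or was lower by 2-fold, and none was lower at an unadjusted p under 0.05, in either species or with DESeq2 or limma. The shares of all peaks given above for *stg* with edgeR and the 2-fold rule apply here too, but with 9 peaks a single one is 11.1% of the locus. DESeq2 and limma called fewer peaks lower over the table than edgeR did. No share of all peaks was counted for 1 strain alone or for the unadjusted p. limma called 1 of the 3 peaks in *D. pseudoobscura* and 2 in *D. virilis*, and DESeq2 called none. Over all 19424 peaks limma called 1537 higher in *D. pseudoobscura* and 1836 in *D. virilis*, and DESeq2 called 504 and 430. The strains were at most 0.63 log2 units apart, at peak 9 (15752350 to 15752615), which had 22.5 RPKM (Canton-S) and 14.6 RPKM (FRT82) in the strains, with *D. pseudoobscura* at 25.6 RPKM and *D. virilis* at 40.7 RPKM. Peaks 4 and 6 met no rule for naming, and peak 6 was also called in neither species. The level of the weak group, peaks 1 to 4, was 15.5 ± 1.45 RPKM in the strains (SD, n = 2), with *D. pseudoobscura* at 25.2 RPKM and *D. virilis* at 36.9 RPKM, and that of peaks 5 to 9 was 47.2 ± 0.242 RPKM, 57.4 RPKM and 59.7 RPKM.

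**Figure D3:**
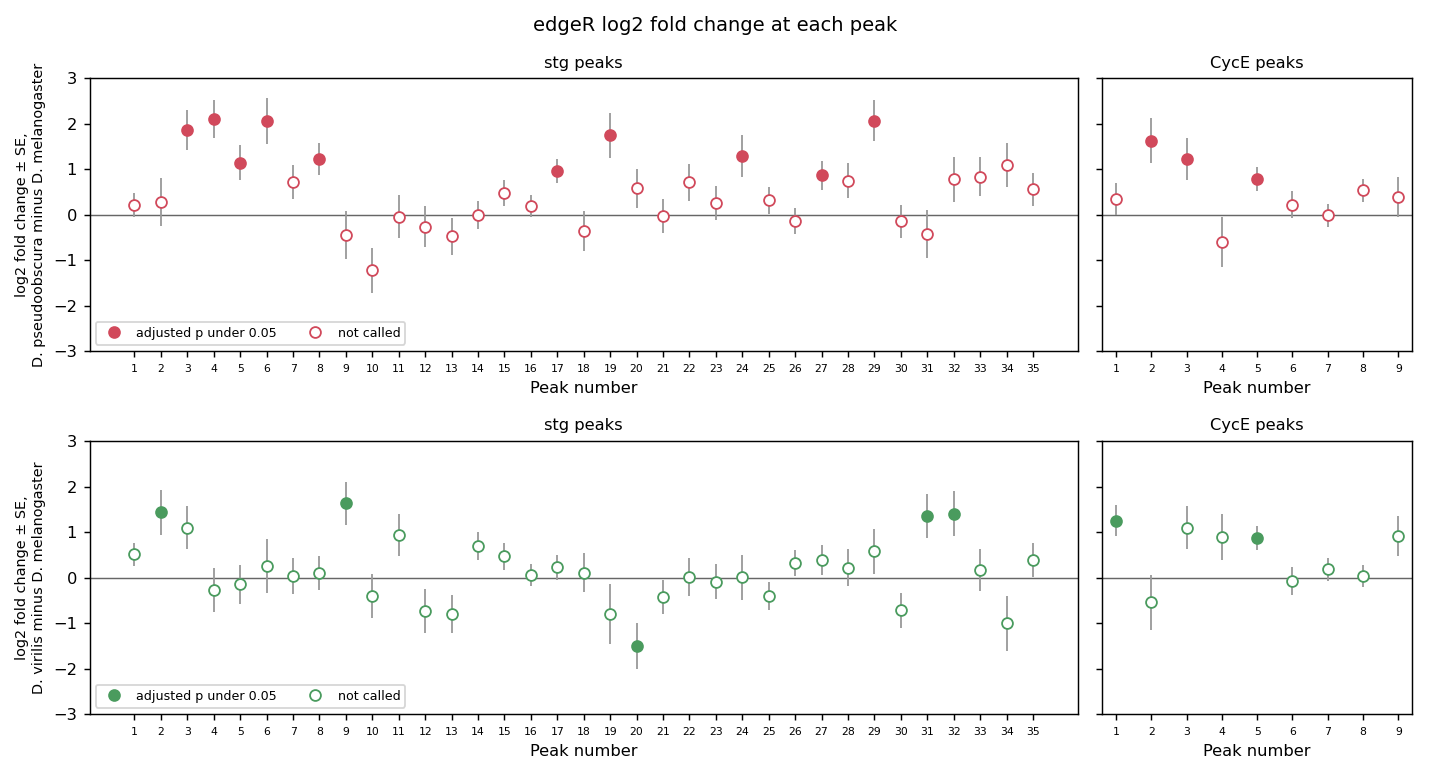
Log2 fold change (edgeR, ± SE) of *D. pseudoobscura* (upper panels) and *D. virilis* (lower panels) against *D. melanogaster* at each *stg* and *CycE* peak, with filled points at an adjusted p under 0.05. At *stg* all 10 filled points of *D. pseudoobscura* lie above 0, and peak 20 is the only filled point below 0, in *D. virilis*.

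Most of the *stg* peaks called higher were weak in *D. melanogaster*, as were most of the peaks called higher over the table. Among all peaks whose geometric mean over the strains was under 20 RPKM, 29.1% were called higher in *D. pseudoobscura*, against 6.95% of those between 20 and 40 RPKM and 5.39% of those at 40 RPKM or more. The shares called lower ran the other way, at 6.31%, 16.7% and 18.2% in *D. pseudoobscura* and 2.66%, 16.4% and 20.04% in *D. virilis*. Of the peaks called higher in *D. pseudoobscura*, *stg* gave 7 of 15, 1 of 10 and 2 of 10 in these classes, and *CycE* gave 2 of 5 in the lowest and 1 of 4 in the highest. In *D. virilis* the shares of all peaks called higher were 29.5%, 4.13% and 1.80%. The *stg* peaks called higher in *D. virilis* were 4 of the 15 in the lowest class and none in the others, and the *CycE* peaks were 1 of 5 and 1 of 4. Peaks were gathered from those called in any library, so the table includes regions that were weak in *D. melanogaster*, and the part of this in the counts of called peaks was not tested. The deposited RPKM also gave larger ratios for weak peaks than the edgeR fit did. The RPKM ratio is to the geometric mean of the strains, whereas edgeR fits their counts jointly. How much of the gap comes from this was not tested. At *stg* peaks under 20 RPKM the log2 ratio in RPKM exceeded the fitted log2 fold change by a median of 0.23 in *D. pseudoobscura* and 0.24 in *D. virilis*, whereas at 40 RPKM or more it was smaller by a median of 0.11 in *D. pseudoobscura* and larger by 0.03 in *D. virilis*.

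**Figure D4:**
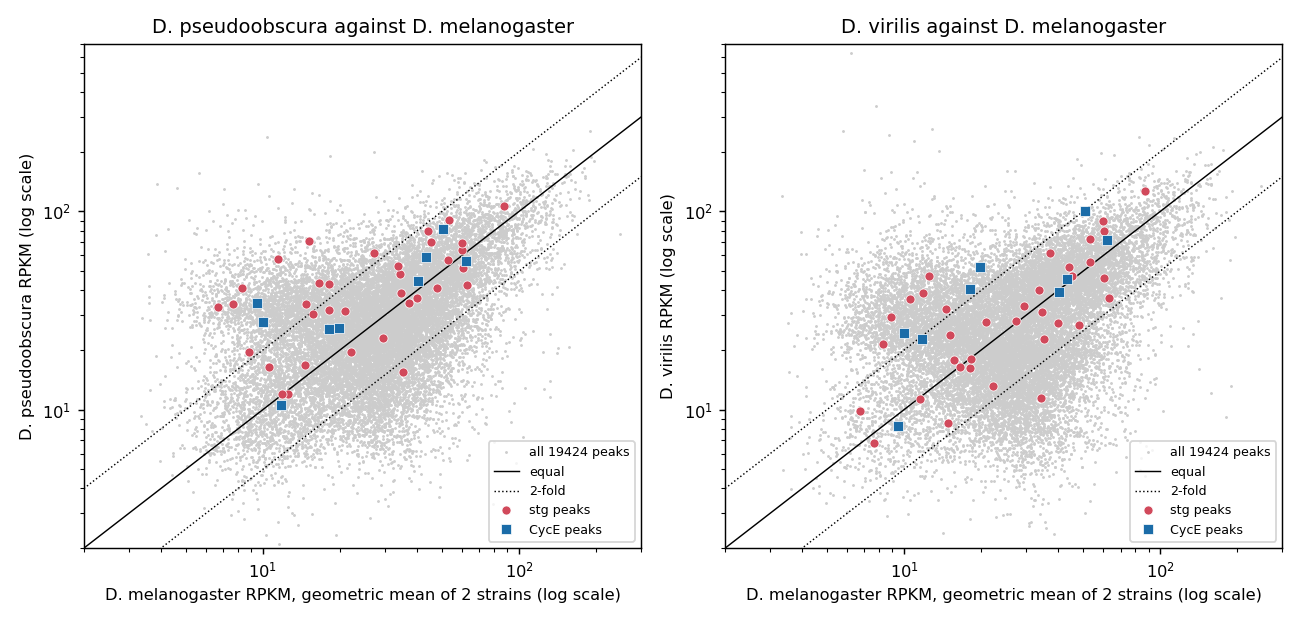
RPKM of *D. pseudoobscura* (left) and *D. virilis* (right) against the geometric mean RPKM of the 2 *D. melanogaster* strains, on log axes, with 1 grey point for each of the 19424 peaks, *stg* peaks as red circles and *CycE* peaks as blue squares. The solid line marks equal heights and the dotted lines 2-fold differences, and the *stg* and *CycE* peaks above the upper dotted line in either panel are weak or moderate in *D. melanogaster*.

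The order of peak heights within *stg* was shared between the strains more than between species. Over the 35 peaks, Canton-S correlated with FRT82 at a Pearson's r of 0.90 on log2 RPKM, with *D. pseudoobscura* at 0.56 and with *D. virilis* at 0.68, and between *D. pseudoobscura* and *D. virilis* it was 0.28. Over all peaks the same values were 0.81, 0.45, 0.36 and 0.24. These describe peaks of single libraries that share a normalization, and peaks are not replicates. The direct log2 ratio of *D. pseudoobscura* to *D. virilis* ran from -1.98 to 2.35 over the *stg* peaks, with *D. pseudoobscura* the higher at 24 of 35, and from -1.12 to 2.06 over the *CycE* peaks, where it was the higher at 4 of 9.

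The peaks elsewhere in the table with the most similar heights were found by the Euclidean distance of log2 RPKM over the 4 libraries. For *stg* peak 15 they lay on X from 12570752 to 12571330 (distance 0.12), on 2R from 4214804 to 4215186 (0.15) and on 3L from 10845708 to 10846226 (0.18). For *CycE* peak 5 the nearest lay on 3R from 27514671 to 27515340 (0.07), where the strains had 45.0 and 59.4 RPKM, 79.3 RPKM in *D. pseudoobscura*, and 98.2 RPKM for *D. virilis*. The next were on 2R from 8664410 to 8665226 (0.23) and on 2L from 11155512 to 11156060 (0.27).

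In the RefSeq annotation of release 6, from which no position was taken, the protein-coding neighbours of *stg* are *SP1029* and *CG45544*, and those of *CycE* are *CG43924* and *ND-B17*. Both windows can therefore hold peaks of other genes, and whether a peak lies in a promoter, an exon or an intron was not determined.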

How the data were processed

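The members and the windows were chosen with earlier results of these data known. The authors discarded reads that held adapter, aligned each library with Bowtie2 to the genome of its own species, transferred the other species' alignments to release 5 of *D. melanogaster* by liftOver, called peaks per library with F-Seq, merged them, and dropped regions with no reads in a species. The paper also describes its 19424 peaks as filtered by a minimum RPKM in the 3 species and by a minimum length. The first measure, deposited as counts, is raw reads per peak from HTSeq, counted without strand. The second, deposited as RPKM, was scaled by the authors for length and depth and again between libraries, by a tool not given in the sources used here. Only the other species passed through liftOver, and how many of their reads were lost there was not measured.

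Counts of all 19424 peaks were fitted with edgeR 4.0.16 (quasi-likelihood, TMM, no filter) in 3 groups, which leaves 1 residual degree of freedom, and standard errors were taken as the log2 fold change over the root of the F statistic. The coefficient of variation was 20.1%. In edgeR's estimate of the dispersions the prior degrees of freedom were infinite, so the dispersions followed 1 trend. The prior degrees of freedom of the quasi-likelihood fit, which the F statistic uses, were not recorded. On counts simulated for *D. pseudoobscura* with 200 of 19424 peaks changed by 2 log2 units, edgeR recovered 92.0% and called 9 unchanged peaks, limma 3.58.1 with a trend 86.0% and 7, and DESeq2 1.42.0 44.5% and 1. All simulated libraries were drawn from the mean of the strains with the spread that edgeR fitted between them. The simulation thus takes for granted that *D. pseudoobscura* varies like the strains and cannot test it. It also changed far fewer peaks than edgeR called in the data. RPKM ratios are to the geometric mean of the strains, with no pseudocount except 1 in limma. The Ornstein-Uhlenbeck models of the study were not fitted here. Counting errors cover sampling of reads only, and p-values the spread between the 2 strains, which may be technical.

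The alternatives were DESeq2's size factors, DESeq2's Wald test, limma on log2(RPKM + 1), *D. pseudoobscura* and *D. virilis* joined into 1 group, at least 10 counts in every library, other fold limits, TMM-scaled counts, medians, wider windows, and leaving out the highest peak or a strain. Named peaks are, for each locus, the 3 highest and the lowest by mean log2 RPKM, the longest, the one with the largest strain ratio, all past the 2-fold rule and all called. Sequences of the peaks were not analysed here.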

Additional observations from a re-analysis of the deposited data

How the results depend on the processing

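No result changed direction under an alternative. With TMM library sizes replaced by DESeq2's size factors, edgeR called the same number of *stg* peaks higher in *D. pseudoobscura* (10), and with at least 10 counts required in every library it called 7, or 3 for *D. virilis*, since peaks with fewer FRT82 reads were no longer tested. With the size factors, 2665 of 19424 peaks were called higher in *D. pseudoobscura*. With at least 10 counts, these were 2465 of 18455, and 2222 of 18455 for *D. virilis*. With *D. pseudoobscura* and *D. virilis* joined into 1 group of 2, edgeR called 0 peaks of either locus in either direction. DESeq2 called 1 *stg* peak (peak 4) and 0 *CycE* peaks higher in *D. pseudoobscura*, and in *D. virilis* 0 *stg* peaks higher, 0 *stg* peaks lower and 0 *CycE* peaks higher. limma called 6 *stg* peaks and 1 *CycE* peak higher in *D. pseudoobscura*. Over the whole table, DESeq2 called 504 peaks higher and 701 lower in *D. pseudoobscura* and 430 and 688 in *D. virilis*, limma 1537 and 1407, and 1836 and 2077, and edgeR 2686 and 2663, and 2303 and 2496. The fitted folds of the called peaks kept their sign under every alternative that gave a fold. With 1 strain left out edgeR has no residual degrees of freedom, so that fit gave folds without a test. The RPKM rule was tried at other limits. For this rule at these limits, with 1 strain, with TMM-scaled counts or with at least 10 counts, the share over all peaks was not counted. The counts that follow for these settings can therefore not be set against the table. At 1.5-fold, 14 *stg* peaks were higher in *D. pseudoobscura*, 3 *stg* peaks were lower in *D. virilis* and 5 *CycE* peaks were higher in *D. virilis*. At 3-fold, 5 *stg* peaks and 1 *CycE* peak were higher in *D. pseudoobscura*, 2 *stg* peaks and 0 *CycE* peaks were higher in *D. virilis*, and 0 *stg* peaks were lower in either. With at least 10 counts, 5 *stg* peaks were higher in *D. pseudoobscura* at 2-fold. With TMM-scaled counts as RPKM, 1 *CycE* peak was higher in *D. virilis*. With 1 strain left out, between 1 and 3 *stg* peaks were lower and between 3 and 4 *CycE* peaks higher in *D. virilis*. With windows wider by 25% on each side, 8 *stg* peaks were higher and 2 lower in *D. virilis*, and 1 *CycE* peak was lower in *D. pseudoobscura*, as was 1 in *D. virilis*. The log2 difference of the *stg* level in *D. pseudoobscura* was 0.65 with the median over peaks. That of *CycE* in *D. pseudoobscura* was 0.41 with TMM library sizes, 0.63 with the median, 0.24 without the highest peak and 0.19 in the widened window, and in *D. virilis* these were 0.39, 0.88, 0.31 and 0.18. For all of these, the cause was not tested. No paired analysis was possible because nothing in the labels pairs a library of 1 species with a library of another. Precision is limited by FRT82, with a counting error of 15.1% at its median peak, and by the lack of replicates in *D. pseudoobscura* and *D. virilis*.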
